A study of Mus musculus with 9 samples.

Results

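The genes described here are 32 genes of cholesterol synthesis, sterol sensing and cholesterol transport, read in mouse hippocampus at postnatal day 21. They were taken by gene symbol from a list of sterol genes. All 32 were found among the 23412 gene symbols of the expression table, Msmo1 under its older symbol Sc4mol, and all 32 were at or above 1 TPM (a length-scaled share of a library's transcripts, the unit of the table) in every library. The study asked which nursing window is sensitive to perfluorooctane sulfonate (PFOS), a persistent fluorinated surfactant. Pups took in PFOS with the milk of dams that were gavaged with 1 mg/kg each day, either on postnatal days 1 to 7 (PFOS P1-7) or on days 8 to 14 (PFOS P8-14). Controls carry the treatment label sham. There were 3 libraries in each of the 3 groups, all from wild-type mice, poly(A)-selected and stranded. The labels give no litter, sex or batch and do not say that each library is a separate animal, so p-values measure only the spread between these libraries, which may be technical. The dose belongs to the dam, and the dose reaching a pup is not in the labels.

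Cholesterol is made from acetyl-CoA through mevalonate, then squalene and lanosterol, and the last steps trim lanosterol to cholesterol. Brain cholesterol is made locally, because plasma lipoproteins do not cross the blood-brain barrier, and in a young brain most of it goes into myelin. The transcription factor SREBP2, made from Srebf2, is carried from the endoplasmic reticulum by Scap when sterol is low and held back there by Insig1 and Insig2. It then switches on the synthesis genes through sterol regulatory elements, with the help of NF-Y bound at nearby CCAAT boxes. Astrocytes export cholesterol on apolipoprotein E with the pumps Abca1 and Abcg1, and neurons hydroxylate surplus cholesterol with Cyp46a1 so that it can leave the brain.

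The start-site sequences of 6 genes are shown: the synthesis enzymes Hmgcs1, Lss, Hsd17b7, Sc5d and Pmvk and the regulator Srebf2. Pmvk had a lower mean in both exposed groups than in the controls, with no adjusted p below 0.05. A link between these sequences and the levels was not tested. Each is the 250 bases before the annotated start site, 5′ to 3′ on the gene's strand, from RefSeq on GRCm38.p6. Capitals mark CCAAT boxes, read as CCAAT or as ATTGG on the other strand, and in Hmgcs1 also a sterol regulatory element.
Hmgcs1, chr13:119690101-119690350, plus strand: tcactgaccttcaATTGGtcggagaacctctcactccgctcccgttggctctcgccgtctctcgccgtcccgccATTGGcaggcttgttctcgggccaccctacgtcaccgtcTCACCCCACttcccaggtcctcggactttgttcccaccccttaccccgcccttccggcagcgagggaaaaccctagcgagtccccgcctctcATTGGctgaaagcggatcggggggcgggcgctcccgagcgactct
Lss, chr10:76531355-76531604, plus strand: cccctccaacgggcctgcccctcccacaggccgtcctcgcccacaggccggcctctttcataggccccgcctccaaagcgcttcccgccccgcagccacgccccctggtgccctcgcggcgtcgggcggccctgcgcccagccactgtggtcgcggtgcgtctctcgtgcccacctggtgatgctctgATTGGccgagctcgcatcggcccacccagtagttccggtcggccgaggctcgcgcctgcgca
Hsd17b7, chr1:169969206-169969455, minus strand: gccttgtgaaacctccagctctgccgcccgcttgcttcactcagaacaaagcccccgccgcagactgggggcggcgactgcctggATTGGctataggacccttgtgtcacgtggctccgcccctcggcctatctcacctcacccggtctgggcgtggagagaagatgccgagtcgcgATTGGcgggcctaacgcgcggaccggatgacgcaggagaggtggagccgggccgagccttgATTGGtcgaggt
Sc5d, chr9:42264301-42264550, minus strand: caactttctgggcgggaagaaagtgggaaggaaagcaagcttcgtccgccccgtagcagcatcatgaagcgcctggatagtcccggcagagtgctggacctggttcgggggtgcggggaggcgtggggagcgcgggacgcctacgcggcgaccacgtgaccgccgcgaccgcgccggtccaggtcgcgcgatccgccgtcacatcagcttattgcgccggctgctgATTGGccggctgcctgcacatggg
Srebf2, chr15:82147019-82147268, plus strand: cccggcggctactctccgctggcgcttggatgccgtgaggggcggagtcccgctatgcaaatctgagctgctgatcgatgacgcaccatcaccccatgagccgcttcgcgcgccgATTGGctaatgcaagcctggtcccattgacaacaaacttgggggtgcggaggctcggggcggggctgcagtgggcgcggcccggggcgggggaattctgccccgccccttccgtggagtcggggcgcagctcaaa
Pmvk, chr3:89454291-89454540, plus strand, the first of its 2 listed start sites: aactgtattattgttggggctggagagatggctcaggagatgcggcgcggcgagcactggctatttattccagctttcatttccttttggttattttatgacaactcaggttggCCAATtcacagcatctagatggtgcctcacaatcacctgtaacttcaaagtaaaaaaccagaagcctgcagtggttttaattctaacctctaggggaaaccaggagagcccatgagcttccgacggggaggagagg

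Of the 32 genes, 26 matched the RefSeq start-site table by symbol, some with several start sites. A CCAAT box lay in the 250 bases before at least 1 start site of 21 of the 26 genes (80.8%), against 40.3% of the 10552 tested genes with a listed start site and 33.8% of all 32851 start-site windows. Among the synthesis enzymes it was in 14 of 15, all but Acat2. In the transport and turnover genes it was in 3 of 6, and Abca1, Apoe and Lrp1 had none there. Mvk held 5 boxes, and Hmgcs1, Hsd17b7 and Msmo1 held 3 each, as did 1 start site of Insig2. Those of Hmgcs1 and Hsd17b7 are marked in capitals in the lines above.

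The other motifs were searched on both strands in the same windows, and matches of different motifs could share bases. The sterol regulatory element TCACNCCAC was in 1 of 26 genes, Hmgcs1, as TCACCCCAC with its first base 137 bases before the start site, against 1.25% of those tested genes and 1.05% of all windows. A GC box (GGGCGG), the site of Sp1-type factors, was in 23 of 26 genes (88.5%), against 63.8% of the tested genes with a listed start site and 32.7% of all windows. The E-box CACGTG was in 6 of 26 genes (23.1%), Hsd17b7 and Sc5d among them, against 9.73% of those tested genes and 6.02% of all windows. A direct repeat of the kind that liver X receptors bind, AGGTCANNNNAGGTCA, was in 0 of 26 genes and in 0.0152% of all windows. It was also in 0 of the 10552 tested genes with a listed start site, so this strict pattern cannot set the 26 apart. These are exact matches of letters in a short window and not measured binding. A site that departs from the letters is not counted, so a gene without a match is not shown to lack the element.

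Apoe, the main lipid carrier of brain lipoproteins, was by far the most abundant transcript of the set, at 4331 ± 371 TPM (SD, n = 3) in the controls. Hmgcs1, which makes HMG-CoA, came next at 342 ± 31.8 TPM (SD, n = 3), and Cyp46a1 followed at 170.1 ± 6.79 TPM (SD, n = 3). The lowest were Abca1 and Stard4, both at a mean of 9.34 TPM, and Soat1, which esterifies cholesterol, at 8.61 ± 1.58 TPM (SD, n = 3). Apoe stood 503-fold above Soat1 by control mean. TPM are scaled by transcript length, so these levels can be compared between genes, within the limit of the length trends between libraries given below.

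In the order of control means, 26 of the 31 pairs of neighbours had control values that overlapped. The 5 that did not were Apoe and Hmgcs1, Hmgcs1 and Cyp46a1, Npc1 and Nsdhl, Nsdhl and Abcg1, and Lss and Hsd17b7. The 3 control libraries agreed most closely for Nsdhl, with a coefficient of variation of 0.314%, and least for Lrp1, at 37.9%. Control replicate 1 was the highest of the 3 controls in 15 of the genes and the lowest in 13.

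**Figure D1:**
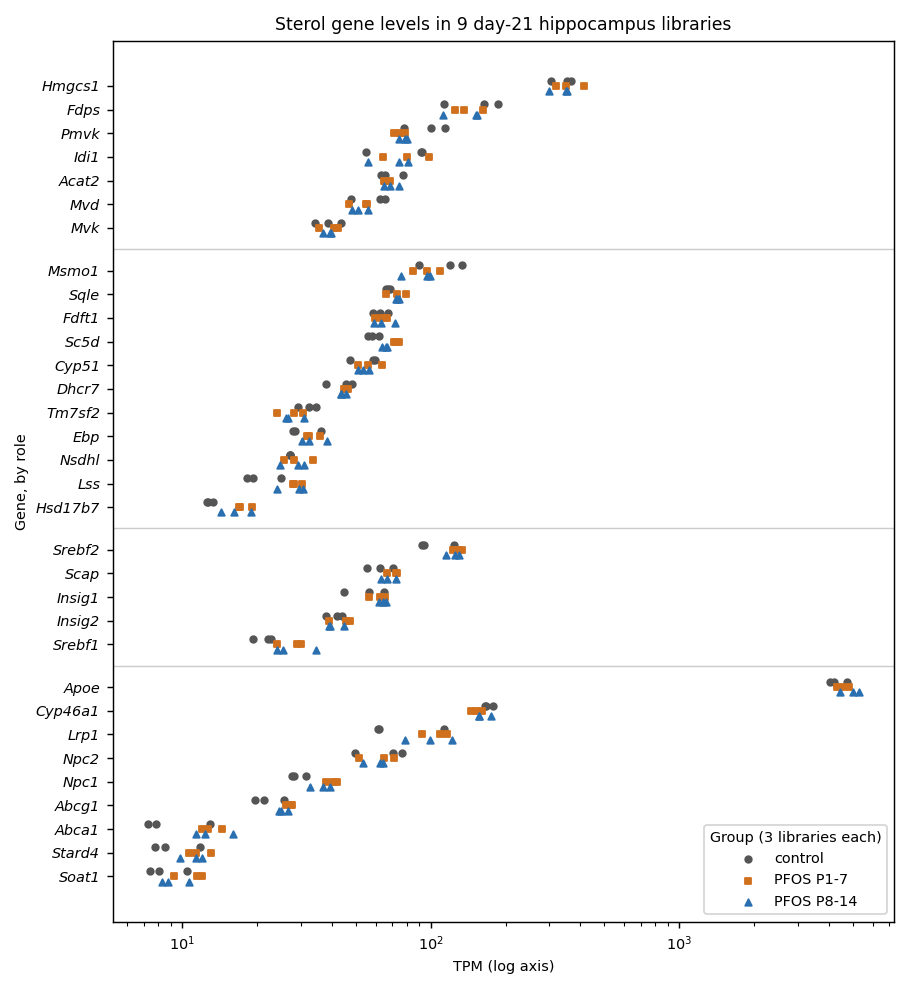
Level of each of the 32 sterol genes in each of the 9 libraries, in TPM on a log axis, with genes grouped by role and ordered by control mean. Apoe lies at or above 4035 TPM in every library, and the grey control points of Npc1, Sc5d, Hsd17b7 and Srebf1 lie to the left of all coloured points.

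Differences between groups were taken on log2(TPM + 1) with limma, in 1 fit over the 14336 genes that reached 1 TPM in 3 or more libraries. A log2 difference in the following text is on this scale, which understates the difference of low genes slightly, and its SE is the standard error from that fit. No gene of the table passed an adjusted p (Benjamini-Hochberg) of 0.05 in any comparison, so 0% of genes were called and 0 of the 32 sterol genes. The smallest adjusted p among the 32 was 0.181 for PFOS P1-7 and 0.426 for PFOS P8-14, both against control. No sterol gene is therefore described as having risen or fallen. What follows gives levels, differences and unadjusted p-values.

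Against control, 9 of the 32 genes had an unadjusted limma p below 0.05 in PFOS P1-7, 8 higher and 1 lower. That is 28.1%, where the share over all tested genes was 18.3%, with 12.5% higher and 5.79% lower. The median log2 difference was 0.085 for the 32 genes and 0.0875 for all tested genes, and 24 of 32 (75%) were above 0 against 65.5% of all. In 6 genes every PFOS P1-7 library was above every control, and in 1 every one was below, where 12.3% and 6.56% of all tested genes did so.

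In PFOS P8-14 the count was 7 of 32 (21.9%), 6 higher and 1 lower, against 11.0% of all tested genes, 6.33% higher and 4.65% lower. The median was 0.071 against 0.0583 for all genes, and 21 of 32 (65.6%) were above 0 against 62.1%. In 5 genes all PFOS P8-14 libraries were above all controls, and in 0 genes were all below, where 7.31% and 5.99% of all tested genes did so. Both exposed groups are compared with the same 3 controls, so their values are not independent of each other. By their medians and shares above 0, the 32 genes as a set lay close to the table as a whole.

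**Figure D2:**
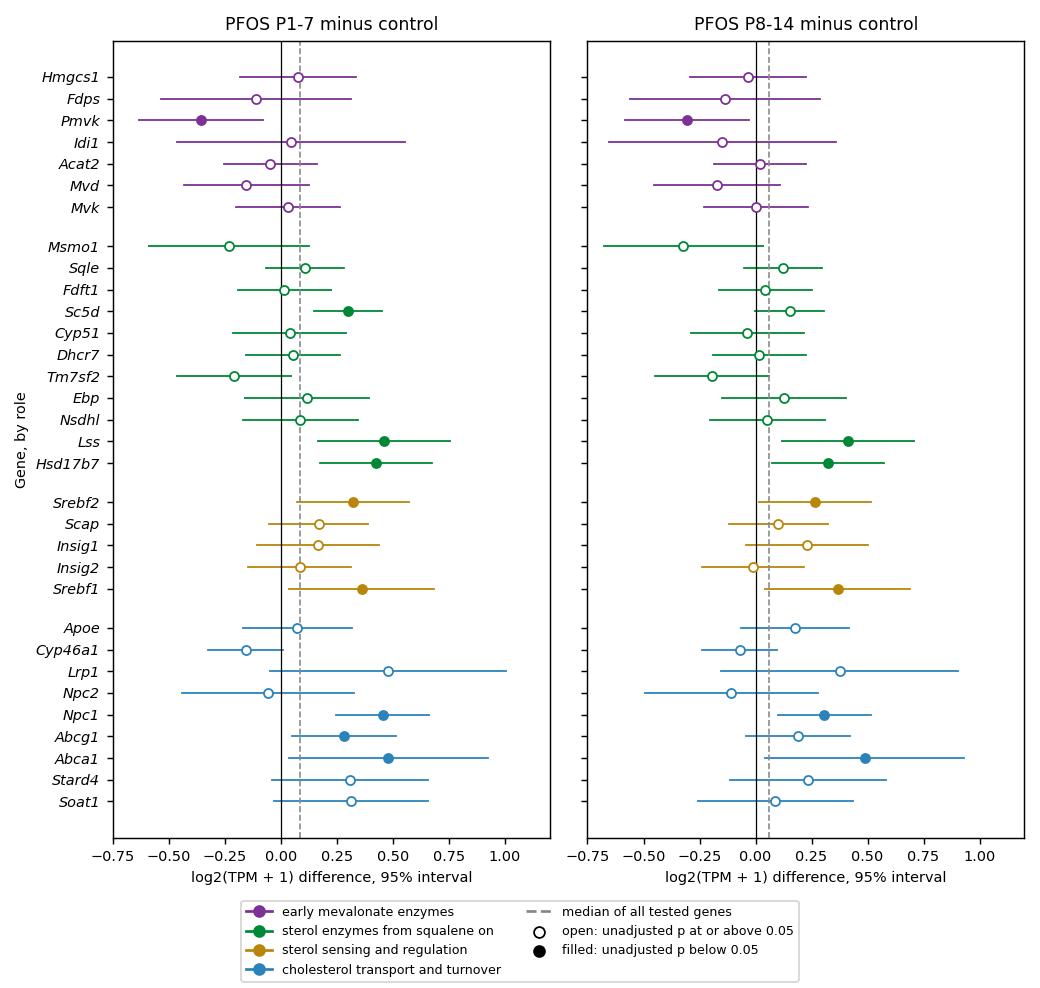
Log2(TPM + 1) difference of each exposed group from control for the 32 genes, with the 95% confidence interval of the limma fit and a dashed line at the median of all tested genes. Lss, Hsd17b7, Srebf1, Srebf2, Npc1 and Abca1 are filled to the right of 0 in both panels, and Pmvk is filled to the left of 0 in both.

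The 7 early enzymes, which lead from acetyl-CoA to farnesyl diphosphate, lay mostly at or below control. Their median log2 difference was -0.05 in PFOS P1-7 and -0.14 in PFOS P8-14, with 3 and 2 of 7 genes above 0. Hmgcs1 stood at 306, 353 and 366 TPM in the control libraries, at 320.2, 351 and 414 TPM in PFOS P1-7 and at 298, 353 and 349 TPM in PFOS P8-14. The groups overlapped throughout, with replicate 1 the lowest of each.

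Pmvk, phosphomevalonate kinase (chr3:89454541-89469014), stood at 77.8, 114.3 and 99.9 TPM in the controls. It was at 70.9, 75.2 and 78.7 TPM in PFOS P1-7 and at 79.9, 78.5 and 74.4 TPM in PFOS P8-14. Control replicates 2 and 3 lay above all 6 exposed libraries, while control replicate 1 lay among them. Pmvk differed from control by -0.36 ± 0.12 (SE; unadjusted p = 0.0167, adjusted p = 0.22, limma) in PFOS P1-7 and -0.31 ± 0.12 (SE; unadjusted p = 0.0335, adjusted p = 0.443, limma) in PFOS P8-14. Without control replicate 2 these were -0.23 and -0.18, and the unadjusted p was above 0.05 in both. Pmvk has the shortest transcript of the 32 genes, at 1194 bases.

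The other 5 early enzymes had unadjusted p-values above 0.05 in both comparisons. Fdps, the farnesyl diphosphate synthase, had group means of 154.2 (control), 140.7 (PFOS P1-7) and 138.8 TPM (PFOS P8-14). Mvd, the mevalonate diphosphate decarboxylase, had means of 58.6, 52.3 and 51.5 TPM in the same order, and Mvk, mevalonate kinase, 38.7, 39.4 and 38.5 TPM. Idi1, the isopentenyl diphosphate isomerase, had 79.4, 81.0 and 70.5 TPM and Acat2, which joins the first acetyl groups, 68.6, 66.1 and 69.3 TPM.

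These early genes moved together between libraries of the same group. With group means removed, the median Pearson r over the 21 pairs of the 7 genes was 0.618 across the 9 libraries, and 16 pairs were above 0.5. The libraries share their preparation and composition, and r was not taken over all gene pairs. The values thus describe these libraries and are not shown to be particular to these genes. Control replicate 1 and PFOS P8-14 replicate 1 had the lowest mean log2 deviations of the early enzymes, at -0.21 and -0.19, and control replicates 2 and 3 the highest, at 0.19 and 0.21. Control replicate 1 also had the lowest mean of 20 oligodendrocyte and myelin markers, at -0.63 against -0.13 to 0.36 in the other 8 libraries. PFOS P8-14 replicate 1, at 0.03 for those markers, did not.

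From squalene on, 3 of the 11 enzymes had an unadjusted p below 0.05 in PFOS P1-7 and 2 in PFOS P8-14, all of them higher. The medians of the 11 were 0.09 and 0.05. Sc5d, the sterol C5-desaturase (chr9:42251592-42264300), stood at 62.1, 58.1 and 56.1 TPM in the controls, at 70.9, 72.5 and 74.25 TPM in PFOS P1-7 and at 65.7, 63.7 and 66.6 TPM in PFOS P8-14. All 6 exposed libraries lay above all controls, and the PFOS P8-14 libraries lay between the other groups without touching either.

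For Sc5d the log2 difference was 0.30 ± 0.07 (SE; unadjusted p = 0.00139, adjusted p = 0.181, limma) in PFOS P1-7, 23% above the control mean. In PFOS P8-14 it was 0.15 ± 0.07 (SE; unadjusted p = 0.0504, limma). Set directly against PFOS P1-7, PFOS P8-14 differed by -0.15 ± 0.07 (SE; unadjusted p = 0.055, adjusted p = 1, limma). Sc5d was the 1 gene of the 32 in which the exposed groups did not overlap each other, where 4.15% of all tested genes had every PFOS P8-14 value below every PFOS P1-7 value and 1.90% had every one above.

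Hsd17b7, the sterol 3-keto reductase (chr1:169949535-169969242), was tight in the controls, at 12.7, 12.6 and 13.2 TPM. It stood at 17.0, 16.85 and 19.0 TPM in PFOS P1-7 and at 14.3, 16.1 and 18.9 TPM in PFOS P8-14. Every exposed library was above every control, and the PFOS P8-14 values spread more widely. Its log2 difference from control was 0.42 ± 0.11 (SE; unadjusted p = 0.00361, adjusted p = 0.183, limma) in PFOS P1-7 and 0.32 ± 0.11 (SE; unadjusted p = 0.0164, adjusted p = 0.426, limma) in PFOS P8-14.

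Lss, lanosterol synthase, closes squalene epoxide into the first sterol (chr10:76531565-76557139). It stood at 24.9, 18.2 and 19.3 TPM in the controls, at 30.3, 27.8 and 28.1 TPM in PFOS P1-7 and at 30.5, 23.9 and 29.4 TPM in PFOS P8-14. The PFOS P1-7 values were above all controls, while PFOS P8-14 replicate 2 lay below control replicate 1. Lss differed by 0.46 ± 0.13 (SE; unadjusted p = 0.00608, adjusted p = 0.198, limma) in PFOS P1-7 and 0.41 ± 0.13 (SE; unadjusted p = 0.0107, adjusted p = 0.426, limma) in PFOS P8-14, which is 38% and 34% above the control mean.

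Sqle, squalene epoxidase, an early checkpoint of this branch, stood at 68.8, 67.0 and 65.9 TPM in the controls. It was at 72.9, 65.8 and 79.4 TPM in PFOS P1-7 and at 72.6, 74.4 and 72.8 TPM in PFOS P8-14. The PFOS P8-14 libraries were all above the controls, by a log2 difference of 0.12 ± 0.08 (SE; unadjusted p = 0.149, limma), and the PFOS P1-7 libraries spanned them.

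The remaining 7 enzymes of this branch overlapped between groups and had unadjusted p-values above 0.05. Msmo1, the C4-methyl sterol oxidase, had group means of 114.1 (control), 96.3 (PFOS P1-7) and 90.5 TPM (PFOS P8-14), and Tm7sf2, a C14 sterol reductase, 32.05, 27.6 and 27.9 TPM. Cyp51, the lanosterol demethylase, had 55.1, 56.6 and 53.5 TPM, and Fdft1, squalene synthase, 62.6, 63.2 and 64.7 TPM. Dhcr7, the last reductase of the pathway, had 43.9, 45.4 and 44.2 TPM, Ebp, the sterol isomerase, 30.8, 33.3 and 33.6 TPM and Nsdhl, the C4 decarboxylase, 27.1, 29.0 and 28.3 TPM. The largest differences of the 11 enzymes in PFOS P1-7 ran both ways, none with an adjusted p below 0.05. Lss, Hsd17b7 and Sc5d stood 23% to 38% above the control mean, while Msmo1 and Tm7sf2 stood 15.6% and 13.8% below it. The higher genes have transcripts of 4612 to 4787 bases, and Msmo1 and Tm7sf2 of 2044 and 1498 bases. A split of the branch was not tested.

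Among the 5 sensing and regulatory genes, Srebf1 and Srebf2 had unadjusted p-values below 0.05 in both exposed groups. Srebf2 (chr15:82147269-82205379) stood at 123.6, 92.3 and 93.6 TPM in the controls, at 133.5, 128.8 and 122.5 TPM in PFOS P1-7 and at 125.5, 114.9 and 129.4 TPM in PFOS P8-14. Control replicate 1 lay within the exposed range, and the other controls lay below all exposed libraries. The log2 difference was 0.32 ± 0.11 (SE; unadjusted p = 0.0164, adjusted p = 0.22, limma) in PFOS P1-7 and 0.27 ± 0.11 (SE; unadjusted p = 0.0392, adjusted p = 0.443, limma) in PFOS P8-14.

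Srebf1, which encodes the SREBP1 factors of fatty acid synthesis (chr11:60199084-60224186), stood at 22.04, 19.2 and 22.65 TPM in the controls. It was at 29.98, 24.01 and 29.05 TPM in PFOS P1-7 and at 34.6, 25.5 and 24.03 TPM in PFOS P8-14. All exposed libraries were above all controls. Srebf1 differed by 0.36 ± 0.14 (SE; unadjusted p = 0.0328, adjusted p = 0.244, limma) in PFOS P1-7 and 0.37 ± 0.14 (SE; unadjusted p = 0.0302, adjusted p = 0.435, limma) in PFOS P8-14. Without PFOS P8-14 replicate 1, the highest Srebf1 library, the latter was 0.21.

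The escort and its anchors overlapped between groups. Scap stood at 70.6, 62.4 and 55.5 TPM in the controls, at 73.0, 72.2 and 66.4 TPM in PFOS P1-7 and at 72.2, 62.8 and 66.9 TPM in PFOS P8-14. Insig1, itself an SREBP target, stood at 44.7, 64.6 and 56.25 TPM in the controls, at 62.4, 56.5 and 65.45 TPM in PFOS P1-7 and at 62.1, 64.4 and 66.0 TPM in PFOS P8-14. Its low control value is that of replicate 1, and its log2 difference in PFOS P8-14 was 0.23 ± 0.12 (SE; unadjusted p = 0.0912, limma), 0.09 without control replicate 1 and 0.35 without control replicate 2. Insig2 stood at 42.1, 44.1 and 37.7 TPM in the controls, at 38.85, 47.3 and 45.45 TPM in PFOS P1-7 and at 39.2, 39.0 and 44.8 TPM in PFOS P8-14. Its group means were 41.3 (control), 43.9 (PFOS P1-7) and 41.0 TPM (PFOS P8-14).

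**Figure D3:**
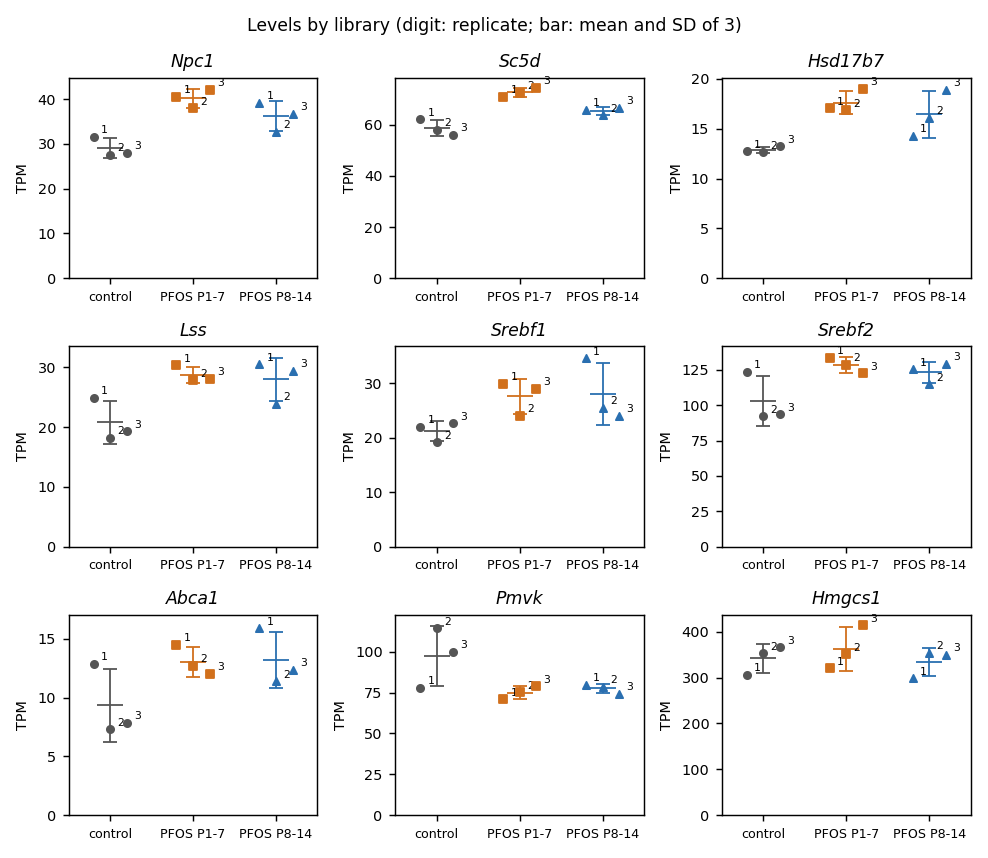
TPM of 9 sterol genes in each library, with axes starting at 0, digits for the replicate number and bars for the mean and SD of each group of 3. All exposed points of Npc1, Sc5d, Hsd17b7 and Srebf1 lie above the controls, whereas control replicate 1 lies among the exposed points for Srebf2, Abca1 and Pmvk.

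Among the 9 transport and turnover genes, 3 had an unadjusted p below 0.05 in PFOS P1-7 and 2 in PFOS P8-14, all higher, with medians of 0.31 and 0.19. Npc1 had the smallest unadjusted p of the 32 genes. It encodes the membrane protein that passes cholesterol out of lysosomes. It stood at 31.5, 27.6 and 28.0 TPM in the controls, at 40.5, 37.9 and 42.0 TPM in PFOS P1-7 and at 39.2, 32.7 and 36.8 TPM in PFOS P8-14.

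All 6 exposed libraries had more Npc1 transcript than any control. The log2 difference was 0.45 ± 0.09 (SE; 95% confidence interval 0.25 to 0.66; unadjusted p = 0.000693, adjusted p = 0.181, limma) in PFOS P1-7, 38% above the control mean. In PFOS P8-14 it was 0.31 ± 0.09 (SE; 95% confidence interval 0.10 to 0.52; unadjusted p = 0.00831, adjusted p = 0.426, limma), 25% above. Npc2, the soluble partner of Npc1 in the lysosome, had group means of 65.6 (control), 62.5 (PFOS P1-7) and 59.98 TPM (PFOS P8-14) and overlapped throughout.

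Of the export pumps, Abca1 (chr4:53030789-53159988) stood at 12.9, 7.29 and 7.84 TPM in the controls, at 14.5, 12.7 and 12.01 TPM in PFOS P1-7 and at 15.9, 11.4 and 12.4 TPM in PFOS P8-14. Control replicate 1 was again among the exposed libraries. The log2 difference was 0.48 ± 0.20 (SE; unadjusted p = 0.0369, adjusted p = 0.253, limma) in PFOS P1-7 and 0.49 ± 0.20 (SE; unadjusted p = 0.0349, adjusted p = 0.443, limma) in PFOS P8-14.

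Abcg1 (chr17:31057694-31117984) stood at 25.7, 19.7 and 21.3 TPM in the controls, at 27.7, 27.4 and 26.1 TPM in PFOS P1-7 and at 24.96, 24.4 and 26.7 TPM in PFOS P8-14. The PFOS P1-7 libraries were above all controls. Abcg1 differed by 0.28 ± 0.10 (SE; unadjusted p = 0.0217, adjusted p = 0.223, limma) in PFOS P1-7 and 0.19 ± 0.10 (SE; unadjusted p = 0.0969, limma) in PFOS P8-14.

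The carrier Apoe stood at 4211, 4748 and 4035 TPM in the controls, at 4822, 4302 and 4538 TPM in PFOS P1-7 and at 5286, 4985 and 4424 TPM in PFOS P8-14, with overlap in both comparisons. Cyp46a1 (chr12:108334268-108362234) stood at 177.9, 166.5 and 165.8 TPM in the controls, at 152.15, 160.9 and 144.75 TPM in PFOS P1-7 and at 173.9, 156.4 and 155.6 TPM in PFOS P8-14. Its PFOS P1-7 libraries were all below the controls, by -0.16 ± 0.07 (SE; unadjusted p = 0.064, limma), and it was the 1 gene of the 32 that did so. Cyp46a1 is made mainly by neurons.

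The last 3 transport genes overlapped between groups with unadjusted p-values above 0.05. Lrp1, a receptor for apolipoprotein E, had group means of 78.8 (control), 106.0 (PFOS P1-7) and 99.7 TPM (PFOS P8-14). Stard4, which carries cholesterol through the cytosol, had 9.34, 11.7 and 11.0 TPM, and Soat1 had 8.61, 10.9 and 9.18 TPM.

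Between the exposed groups, 0 of the 32 genes had an unadjusted limma p below 0.05, where 1.10% of all tested genes did, 0.467% higher and 0.635% lower. Taking PFOS P8-14 minus PFOS P1-7, the median was -0.04 against -0.03 for all genes, and 11 of 32 (34.4%) were above 0 against 38.8% of all. In the F test over all groups, Npc1, Sc5d, Hsd17b7, Lss, Pmvk, Srebf2 and Srebf1 had unadjusted p-values from 0.0021 to 0.0484, where 11.3% of all tested genes were below 0.05. A p that misses the threshold does not show that the windows act alike: for Npc1 the interval of the difference between the windows ran from -0.36 to 0.06 (95%, limma).

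A wider list of 33 sterol genes outside the 32 was read in the same fit. In PFOS P1-7, 10 of 33 had an unadjusted limma p below 0.05, 9 higher and 1 lower, and in PFOS P8-14 8 of 33, 7 higher and 1 lower, beside the shares of all tested genes given above. The medians were 0.18 and 0.13. Erlin2, which takes part in the breakdown of sterol-regulated proteins, had group means of 33.5 (control), 44.2 (PFOS P1-7) and 40.6 TPM (PFOS P8-14). Mbtps2, the protease that releases active SREBP, had 13.1, 16.8 and 16.4 TPM and Vldlr, a lipoprotein and reelin receptor, 26.4, 31.7 and 29.9 TPM. Clu, the brain apolipoprotein clusterin, had 1135, 1314 and 1334.5 TPM, and Por, which feeds electrons to Cyp51 and Sqle, 75.5, 86.3 and 88.9 TPM.

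The lower gene of that list was Gramd1a, which moves cholesterol from the plasma membrane to the endoplasmic reticulum. It stood at 104.4, 101.4 and 105.3 TPM in the controls, at 89.8, 88.1 and 87.6 TPM in PFOS P1-7 and at 89.4, 87.8 and 89.8 TPM in PFOS P8-14. All 6 exposed libraries lay between 87.6 and 89.8 TPM, below all controls. The log2 difference was -0.23 ± 0.06 (SE; unadjusted p = 0.00377, adjusted p = 0.183, limma) in PFOS P1-7 and -0.22 ± 0.06 (SE; unadjusted p = 0.00466, adjusted p = 0.426, limma) in PFOS P8-14.

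The libraries differed in ways the groups do not explain. Summed myelin markers ranged from 10270 to 20170 TPM, lowest in control replicate 1. Choroid plexus and ependyma markers summed to 199 to 318 TPM in 4 libraries (control replicates 1 and 2, PFOS P1-7 replicate 2 and PFOS P8-14 replicate 3) and to 10840 to 13120 TPM in the other 5. All 14 hippocampal subfield markers passed the filter, among them Prox1 of dentate granule cells at 17.1 to 51.5 TPM and Wfs1 of CA1 at 122.2 to 232.9 TPM. In PFOS P1-7, where 18.3% of all tested genes had an unadjusted p below 0.05, 6 of the 14 subfield markers did, 4 higher and 2 lower, and 6 of 15 microglia markers, 1 higher and 5 lower. There 3 of 10 excitatory neuron markers did, all higher, 1 of 20 myelin markers and 0 of 15 astrocyte markers. In PFOS P8-14, where 11.0% of all tested genes did, the counts in the same order were 3 (all higher), 5 (all lower), 2 (both higher), 1 and 0. In bulk tissue, fewer cells of a type and less RNA per cell cannot be told apart. The part of these differences in the sterol values was not tested, beyond the fits that follow.

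**Figure D4:**
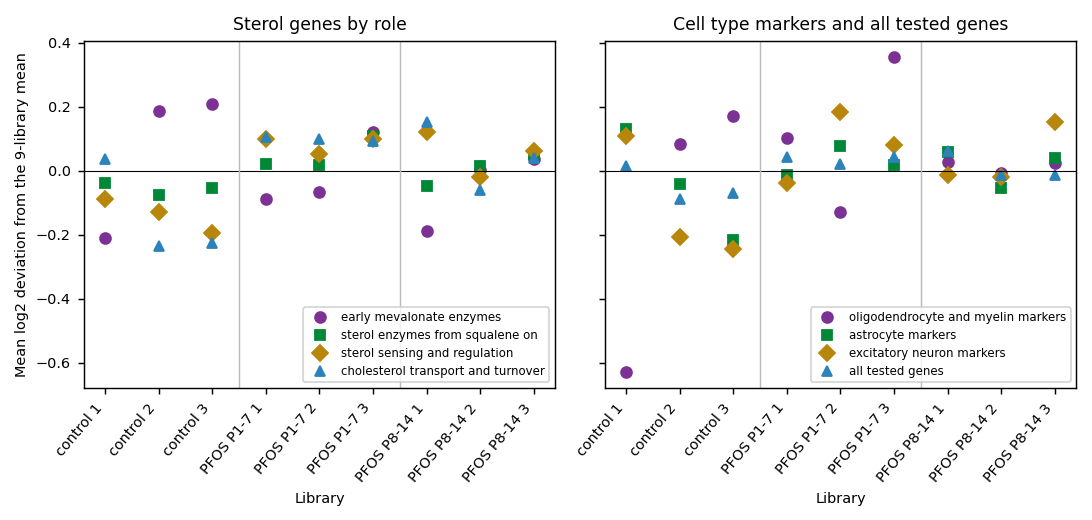
Mean log2 deviation of each gene list from its mean over the 9 libraries, for the 4 roles of sterol genes (left) and for cell type markers and all tested genes (right). The myelin markers of control replicate 1 stand at -0.63, and the transport genes of control replicates 2 and 3 at -0.24 and -0.23 against 0.03 in control replicate 1.

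The calls changed when control replicate 1 was left out, and why they changed was not tested. Without control replicate 1, 10 of the 32 genes passed an adjusted p of 0.05 in PFOS P1-7 and 7 in PFOS P8-14. Of the 14336 tested genes, 2658 and 1741 did so. In PFOS P1-7, Abca1, Abcg1, Hsd17b7, Lrp1, Lss, Npc1, Sc5d, Srebf2 and Stard4 were then called higher and Pmvk lower. In PFOS P8-14, Abca1, Lrp1, Lss, Npc1 and Srebf2 were called higher and Msmo1 and Pmvk lower. Abca1 then had log2 differences of 0.71 and 0.72, Lrp1 of 0.77 and 0.67 and Srebf2 of 0.46 and 0.40. Among the 9 fits that left out 1 library, no other called any of the 32 genes.

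Adjusted p-values over the 21 alternative fits ranged widely, from 0.0101 to 0.503 for Npc1 and from 0.0115 to 0.523 for Lss in PFOS P1-7. Both kept the sign of their difference in all 21 fits and an unadjusted p below 0.05 in all 21 in that comparison. Pmvk, with adjusted p-values from 0.00766 to 0.531, kept its sign in 21 and an unadjusted p below 0.05 in 18, and in 14 of 21 in PFOS P8-14.

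Differences also ran with transcript length. The 8 genes with an unadjusted p below 0.05 and a higher level in PFOS P1-7 had a median transcript length of 4932 bases (4299 to 10262), against 3163 bases for all 32, and Pmvk had 1194. Across all tested genes, Spearman's rho between a library's log2 deviation and transcript length lay at -0.52 for control replicate 3, at -0.42 for control replicate 2 and at -0.19 for PFOS P8-14 replicate 2. The other 6 libraries lay at 0.13 to 0.48. The length trend therefore ran partly with the groups, and what belongs to either cannot be told apart.

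With each library's trend on length and GC content removed, 5 of the 32 genes had an unadjusted limma p below 0.05 in PFOS P1-7, all higher, where 12.8% of all tested genes did. These were Lss (0.30), Npc1 (0.26), Srebf1 (0.26), Hsd17b7 (0.24) and Srebf2 (0.19). In PFOS P8-14 there were 4, against 10.7% of all tested genes: Lss (0.29), Srebf1 (0.27) and Apoe (0.26) higher and Msmo1 (-0.35) lower. The difference of Abca1 in PFOS P1-7 was then 0.17, that of Sc5d 0.12 and that of Pmvk -0.23. With control replicate 1 left out and the trend removed together, a fit added after the data were seen, 0 of the 32 genes passed an adjusted p of 0.05 in either exposed group. Unadjusted p-values below 0.05 then numbered 9 and 10 of the 32, against 23.6% and 23.2% of all tested genes. Lss had an adjusted p of 0.0553 in PFOS P1-7 in that fit.

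**Figure D5:**
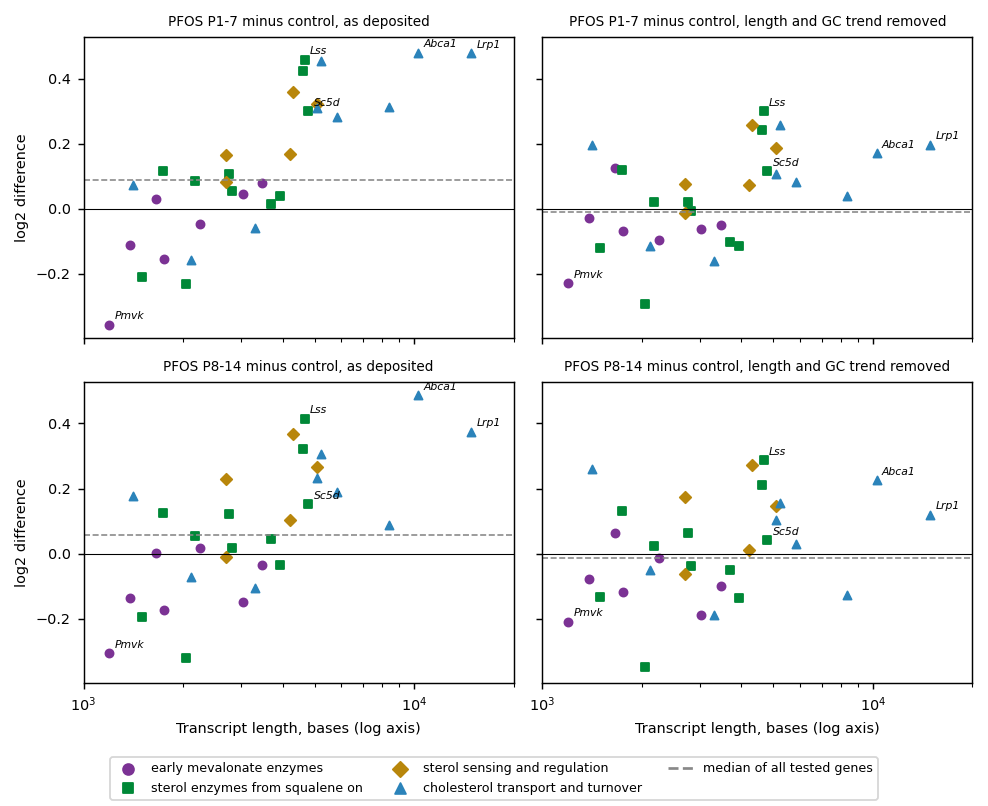
Log2 difference of each of the 32 genes from control against transcript length in bases on a log axis, for the deposited values (left) and after each library's length and GC trend was removed (right), with a dashed line at the median of all tested genes. On the left the longer genes lie higher, up to Abca1 and Lrp1 at 0.48 in PFOS P1-7, where Pmvk lies lowest; on the right Lss lies highest at 0.30 and 0.29.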

How the data were processed

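Hippocampal RNA of day-21 mice was sequenced from poly(A)-selected stranded libraries, per the labels' protocols. The authors deposited 1 table of TPM per gene symbol with 9 sample columns, each summing to about 1000000. The submitters' processing notes name bcl2fastq, fastp 0.21.0, STAR 2.5.3a, RSEM 1.3.3 and build mm10. The annotation is not given in the sources used here. Because TPM carry no read counts, depth is unknown and intervals for counting error are not given.

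From these values, limma 3.58.1 in R 4.3.3 was fitted to log2(TPM + 1) with a mean per group and with variances moderated along a trend on mean level. The 14336 genes that reached 1 TPM in 3 or more libraries entered. Each test was two-sided, and p-values were adjusted over all tested genes by Benjamini-Hochberg, with a threshold of 0.05. Gene positions and start-site windows of 250 bases are from RefSeq and transcript lengths from GENCODE, both on GRCm38. The fit was tested on simulated data with independent noise for each gene, which lacks the trends that genes share within these libraries.

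The 32 genes and all lists were chosen with earlier results of these data known. Values per library are given for each of the 32 with an unadjusted p below 0.05 or with groups that do not overlap the controls, for the 3 of highest mean and for the 5 regulators. Of the wider sterol list, up to 3 genes per direction and comparison are named, by smallest p. Alternatives covered the pseudocount, the filter, the scaling, sample weights, marker scores as covariates, the length and GC trend (a loess fit per library), the groups in the fit, the replicate number as a block and each library left out.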

Additional observations from a re-analysis of the deposited data

How the results depend on the processing

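Over 21 alternative fits, no gene was called in either direction between PFOS P8-14 and PFOS P1-7, and the counts of sterol genes are of unadjusted limma p below 0.05 unless said otherwise. TPM hide the depth, which limits how firmly genes of low level such as Soat1 can be read. Array weights called 2914 genes in PFOS P1-7, 1053 in PFOS P8-14 and 1532 by the F test at an adjusted p of 0.05, 11 and 5 of the 32 among the first pair. They gave 15, 13 and 2 sterol genes (PFOS P1-7, PFOS P8-14 and between the exposed groups), where 37.3%, 29.7% and 3.79% of all tested genes had such a p, and a PFOS P8-14 median of 0.1091. A myelin score as covariate called 2302, 764 and 1109 genes, 11 and 2 of the 32, and gave 15, 14 and 1 sterol genes, beside 32.8%, 25.3% and 2.06% of all tested genes. The choroid plexus score gave 9 and 6 sterol genes, beside 23.4% and 15.7% of all tested genes. With it, higher unadjusted calls over all genes in PFOS P8-14 went from 907 to 1502. Removing the length and GC trend gave 5 and 4 sterol genes (12.8% and 10.7% of all tested genes) and medians of 0.0301 and 0.0165. Median-of-ratios scaling gave medians of 0.0041 and 0.0179, with all-gene medians of 0.0112 and 0.0067. Among unadjusted calls over all genes, the share of higher ones was 68.4% and 57.7% as deposited, 42.1% and 37.6% with that scaling, and 40.5% and 37.9% with the length trend removed. Fits with only the compared groups gave 4 sterol genes in PFOS P8-14 and 1 between the exposed groups (7.87% and 1.68% of all tested genes), and no filter gave 1 between them (1.93%). Leaving out 1 library at a time gave 0 to 2658, 0 to 1741 and 0 to 1493 called genes (PFOS P1-7, PFOS P8-14 and the F test). All came without control replicate 1, except 1 gene in PFOS P1-7 without PFOS P8-14 replicate 1. It gave 5 to 15, 3 to 14 and 0 to 1 sterol genes, while the share over all tested genes ran from 9.42% to 34% in PFOS P1-7 and from 4.97% to 30.2% in PFOS P8-14. The medians ranged from 0.0667 to 0.131 and from 0.0283 to 0.0882. The added fit without control replicate 1 and without the length trend, chosen after seeing the data, called 687, 570 and 354 genes, with medians of 0.0295 and 0.0099. The cause of these shifts was not tested.

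Of the 16 genes given per library, Hmgcs1, Apoe, Insig1 and Insig2 turned sign in some fits. For Hmgcs1 in PFOS P1-7 the value was -0.005 with median-of-ratios scaling, -0.0044 with the myelin score, -0.0512 without the length trend, -0.0235 without PFOS P1-7 replicate 3 and -0.1406 in the added fit, and 0.1619 at its highest when a library was left out. In PFOS P8-14 it was 0.0173 without control replicate 3, 0.0444 without PFOS P8-14 replicate 1 and -0.1123 at its lowest. Apoe in PFOS P1-7 was -0.009 with median-of-ratios scaling, and Insig1 was -0.0831 in the added fit. Insig2 in PFOS P1-7 was -0.0127 without the length trend and -0.0074 in the added fit. In PFOS P8-14 it was 0.0684 with the choroid plexus score, 8e-04 with the myelin score, and 0.004 to 0.0363 in the fits without control replicate 1, control replicate 2, PFOS P8-14 replicate 1 or PFOS P8-14 replicate 2 (0.0195 and 0.0224 for the last pair), and -0.0744 at its lowest, without PFOS P8-14 replicate 3.

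With the replicate number as a block, 0 genes were called, and 12 and 8 of the 32 had an unadjusted p below 0.05, as did 21.7% and 14.8% of all tested genes. With group means removed, libraries of the same number correlated by -0.467 to 0.53 (median 0.139), above 0.1 in 5 of 9 pairs. Those of different numbers correlated by -0.599 to 0.666 (median 0.057), above 0.1 in 8 of 18 pairs. The ranges overlap, so these values cannot decide whether the number pairs the samples. Pseudocounts of 0.1 and 5 and a filter of 5 TPM gave the main counts of 9, 7 and 0 sterol genes. With that filter the unadjusted calls over all genes between the exposed groups went from 158 to 101.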

Other observations

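For 3 of the genes, the transcripts whose levels ran most like theirs were read over the 9 libraries with group means removed. This is a description of shared variation between libraries that also share preparation, length trend and cell composition. Srebf2 was most like Nt5dc3 (Pearson r 0.995), Psmd1 (0.991) and Abr (0.99). Insig1 was most like Dbndd2 (0.99), Gpr37 (0.984) and Trp63 (0.982), and Hmgcs1 most like Gnai3 (0.992), 3830406C13Rik (0.987) and Sept7 (0.986). None of these 9 likest transcripts is among the 32 sterol genes. Gpr37 encodes a receptor found in oligodendrocytes. Within groups, the 9 transport genes had a median pairwise r of 0.403, the 11 enzymes from squalene on 0.092 and the 5 regulators 0.069.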
